A study of Rattus norvegicus with 9 samples.

Results

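Piwi-interacting RNAs (piRNAs) are listed in the small RNA table of rat striatum under 585 names, of which 495 lie outside tRNA sequence. Of these, 44 held 30 or more raw counts over the 9 libraries and are described here, out of 1759 entries in all. An entry was taken as outside tRNA sequence when it shared no run of 16 bases, on the same strand, with any tRNA entry of the table. The members were thus selected on their summed counts, and the abundance of the 44 entries is a description only. They held 17573 counts, which is 91.8% of the 19136 counts outside tRNA sequence and 11.0% of all piRNA counts. The other 451 entries outside tRNA sequence held 1563 counts between them.

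The series compares rats given manganese in an organic or an inorganic form, with 3 striatum libraries in each of 3 groups. MMT, an organic manganese compound, was given into the stomach at 4 mg/kg in corn oil, which supplies about 1 mg of manganese per kg. MnCl2, an inorganic salt used as the positive control, was given by the same route at 200 mg/kg of its hydrate in 10 ml/kg of physiological saline. Control rats received corn oil alone at 1 ml/kg, so the MnCl2 group differed from the control group in vehicle as well as in manganese. All groups were dosed on 6 days a week for 8 weeks, from an age of 8 weeks. The labels describe 18 rats, 3 of each sex in each group, but do not say which sex or rats each of the 9 libraries holds. No label says that the libraries of a group came from separate animals, so p-values measure the spread between libraries, part of which may be technical.

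piRNAs are bound by PIWI proteins and are best known from the germ line, where they guide the silencing of transposons. Primary piRNAs usually begin with U, written T in the table, and their partners made from the opposite strand often carry A at base 10. Catalogues of piRNAs also hold sequences that match abundant structural RNAs, and an entry's name alone does not show that its RNA was bound by a PIWI protein.

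Library totals ran from 583045 to 2012769 counts, and the 44 entries made up between 0.149% and 0.256% of each library. Levels are given as CPM, the count per 1000000 counts of the library, scaled by the trimmed mean of M-values (TMM). The 5 neuronal miRNAs listed were present in every library, at levels given with the other marker miRNAs. Fewer cells that make an RNA and less of it per cell cannot be told apart in these tissue samples.

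The sequences fall into overlapping families and single entries, and both kinds matter for reading the counts. Of the 44 entries, 11 form 3 families with 66.6% of the members' counts. They are written out here because a read of the shared run would match several of them. The capitals mark the run of bases that all entries of a family share.
pir-63875: gaCTCTTAGCGGTGGATCACTCGGCTCGtg
pir-63876: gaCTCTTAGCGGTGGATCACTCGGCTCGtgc
pir-63429: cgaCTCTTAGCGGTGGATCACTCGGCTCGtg
pir-64288: gCTCTTAGCGGTGGATCACTCGGCTCGtg
pir-63462: cgCTCTTAGCGGTGGATCACTCGGCTCGtg
pir-64287: gCTCTTAGCGGTGGATCACTCGGCTCG
pir-63455: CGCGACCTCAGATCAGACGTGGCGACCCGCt
pir-63454: CGCGACCTCAGATCAGACGTGGCGACCCGC
pir-64691: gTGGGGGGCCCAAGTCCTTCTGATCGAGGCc
pir-82776: TGGGGGGCCCAAGTCCTTCTGATCGAGGCc
pir-82775: TGGGGGGCCCAAGTCCTTCTGATCGAGGC
The first family shares 26 bases over 6 entries, the second 30 bases over 2 entries and the third 29 bases over 3 entries. How reads matching several entries were placed is not given in the sources used here, so the entries of a family are uncertain as separate RNAs.

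Among the 33 single entries, those with the most counts mostly began with T. The 6 most abundant, and pir-178901, which had the lowest edgeR p of the members tested for MnCl2 against control, are shown with bases 1 and 10 in capitals, the positions at which primary piRNAs and their partners are marked.
pir-65377: TaacgaacgAgactctggcatgctaac
pir-84278: TgtcaggagTgctgtagacctgttttcctg
pir-71091: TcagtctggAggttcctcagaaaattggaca
pir-77583: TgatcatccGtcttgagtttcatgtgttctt
pir-63606: CtgaaatgaAgagaaaactctctgctgatc
pir-84907: TgtgattggGttacctcactcaggatgcta
pir-178901: TtcctgcagAttttcaagttttgttgaata
A further pair resemble each other over 29 bases and differ at the capitals, by the substitutions A11C and T15C, counted from the 5′ base of pir-84490.
pir-84490: tgtctagtccAtgaTtttagtgggattgc
pir-84491: tgtctagtccCtgaCtttagtgggattgct
The pair held 180 and 179 counts in all.

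The 44 sequences were 25 to 32 bases long with a median of 30, and 34 of them were 29 bases or longer. Lengths of 30 bases (15 entries) and 31 bases (12 entries) were the most frequent, and the 34 longer entries held 87.8% of the members' counts. Of the 451 entries under 30 counts, 372 were 29 bases or longer. Within tRNA sequence the same was true of 69 of 90 entries. The 3 sets thus had similar lengths, with a median of 30 bases in each.

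The first base separated the sets more than length did. T was first in 24 of the 44 entries (54.5%), C in 9, G in 6 and A in 5. Because the families begin mostly with G or C, T-first entries held only 32.2% of the members' counts. T was first in 396 of the 451 entries under 30 counts (87.8%) and in 22 of the 90 entries within tRNA sequence (24.4%), where G led with 53 entries and 81.3% of the counts. These shares describe a fixed catalogue, and no test was made on them. A stood at base 10 in 11 of the 44 entries, and in 6 of the 24 that begin with T. No pair of the 44 entries had complementary first 10 bases, while 7 pairs did among all 585 piRNA entries.

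**Figure D1:**
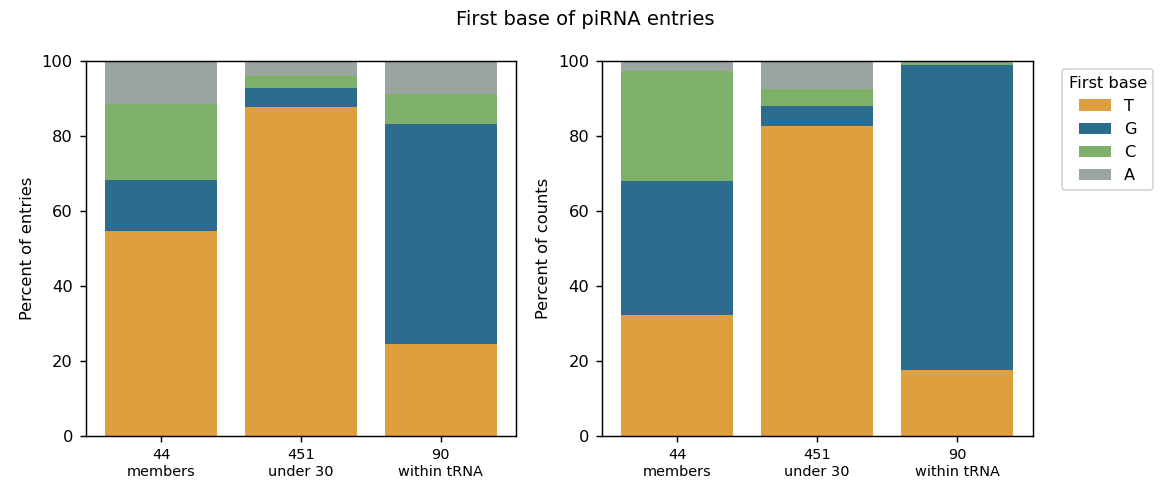
Share of each first base among the 44 entries (members), the 451 entries outside tRNA sequence under 30 counts and the 90 entries within tRNA sequence, as percent of entries (left) and percent of counts summed over the 9 libraries (right). T was first in 54.5% of the 44 entries but in 32.2% of their counts.

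The label after the @ sign varied little. It read piRNAcluster for 43 of the 44 entries and rRNA for pir-63286 alone, and none was labelled tRNA. The entries were not compared with rRNA sequence, so the label does not show whether others of them match rRNA. The rRNA-labelled entry, which is named for its label after its values were seen, had 6, 3 and 5 counts in MMT libraries 1 to 3, 1, 9 and 4 in MnCl2 and 15, 16 and 0 in control. With 59 counts in all, it spread over the whole range within the control group, and the 0 in control library 3 allows up to 4.56 CPM on the TMM scale (3 counts). Such limits cover counting error only. Within tRNA sequence the labels were mixed, with 44 entries labelled tRNA and 46 labelled piRNAcluster.

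Other sequence relations were few. No member shared 16 bases with a tRNA entry on the opposite strand or with a miRNA entry on the same strand. On the opposite strand, pir-65300 matched rno-miR-3473. pir-62224 has an unread base, N, at position 15, which leaves runs of only 14 and 15 bases to compare, and it shares 14 bases with 1 tRNA entry, that for selenocysteine. Its place outside tRNA sequence therefore depends on the run length: with 14 bases it drops out and 43 entries are left.

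The threshold of 30 counts cuts through a gradual decline. Just inside it stood pir-87662 with 32 counts, pir-147743 with 31 and pir-153835 with 30. Just outside it stood pir-62590 with 29 counts, pir-146907 with 27 and pir-66832 with 25. All 9 libraries held at least 1 count for 33 of the 44 entries.

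The first family was the most abundant and varied little between libraries. pir-63875 was at 364.5, 269.7 and 281.8 CPM in MMT libraries 1 to 3, at 222.3, 224.7 and 272.7 CPM in MnCl2 and at 315.2, 195.5 and 235.6 CPM in control. The control values spanned much of the range of the other groups. pir-63876 and pir-63429 overlap it almost entirely and held nearly equal counts, 2604 and 2500 against 2613 for pir-63875. In single libraries their counts were 0.745 to 1.07 and 0.770 to 1.04 times those of pir-63875. Across the 9 libraries their log2 levels correlated with that of pir-63875 at Pearson r = 0.88 and 0.94, as a description of entries that share bases and libraries. The 3 shorter or differently ended entries were far lower, with 105 counts for pir-64288, 96 for pir-63462 and 49 for pir-64287.

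The other families were similarly even. pir-63455 was at 178.0, 126.7 and 112.9 CPM in MMT, at 78.7, 82.1 and 94.4 CPM in MnCl2 and at 167.9, 108.5 and 106.4 CPM in control. Every MnCl2 library was below every library of the other groups. Its shorter partner pir-63454 was at 71.4 to 132.9 CPM in control and at 64.5 to 91.3 CPM in MnCl2, which overlap. pir-64691 was at 93.7, 76.5 and 110.0 CPM in MMT, at 69.1, 100.6 and 72.4 CPM in MnCl2 and at 87.8, 75.3 and 92.7 CPM in control, so its groups overlapped. Its family members pir-82776 and pir-82775, which begin 1 base later, held 594 and 180 counts. Summed over the 11 entries, the families ran from 857.6 to 1577 CPM, a 1.84-fold range over the 9 libraries.

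Most single entries that begin with T behaved in another way, with large differences between libraries of the same group. Some single entries with another first base did so too, among them pir-62444, which begins with A and ranged 15.0-fold over the 9 libraries. pir-84278 had 102, 171 and 31 counts in MMT, 99, 239 and 82 in MnCl2 and 13, 61 and 161 in control. As levels these were 86.9, 214.5 and 22.0 CPM in MMT, 136.7, 233.5 and 86.0 CPM in MnCl2 and 7.23, 59.6 and 244.7 CPM in control. The lowest and the highest library, 33.9-fold apart, were both controls. In each of the 3 groups the library with the largest total had the lowest level, and control library 1, the largest of all, had the fewest counts even before scaling.

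Other abundant single entries with T first were low in the same libraries. pir-71091 had 25, 92 and 17 counts in MMT, 39, 93 and 32 in MnCl2 and 3, 38 and 74 in control. pir-77583 had 33, 57 and 16 counts in MMT, 46, 98 and 41 in MnCl2 and 1, 58 and 58 in control. pir-84907 had 11, 70 and 6 counts in MMT, 15, 50 and 12 in MnCl2 and 1, 28 and 29 in control. Control library 1 had the fewest counts for all of these, and MMT library 3 the next fewest. Log2 levels of pir-71091, pir-77583 and pir-84907 correlated with that of pir-84278 at Pearson r = 0.97, 0.95 and 0.93 over the 9 libraries, again as a description. The look-alike pair moved together too: pir-84490 had 12, 39 and 11 counts in MMT, 26, 48 and 17 in MnCl2 and 0, 11 and 16 in control, and correlated with pir-84491 at r = 0.98.

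**Figure D2:**
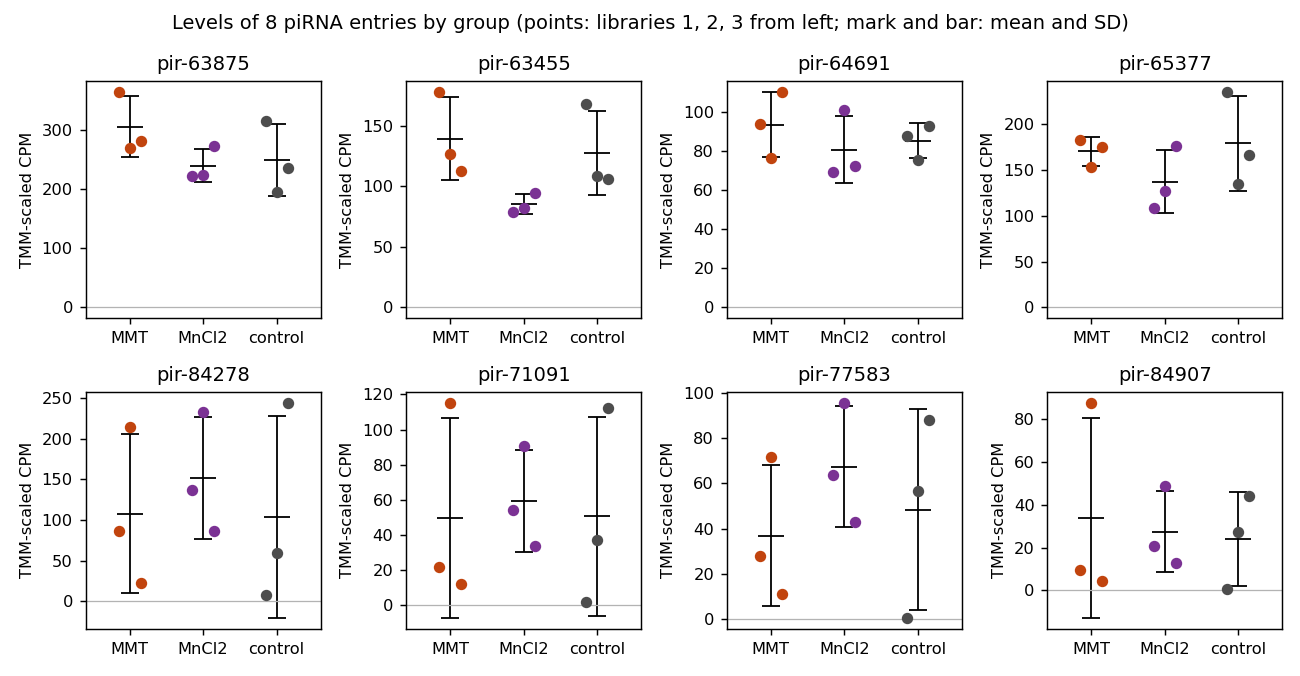
Levels of 8 entries in TMM-scaled CPM, with 1 point per library (1, 2 and 3 from the left in each group) and the mean and SD of the 3 libraries. The upper entries, from the families and pir-65377, range 1.59-fold to 2.26-fold over the 9 libraries, while the lower 4, single entries with T first, spread from near 0 to the highest values within single groups.

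pir-65377 begins with T and carries A at base 10, yet kept the even profile of the families. It was at 183.1, 153.1 and 175.3 CPM in MMT, at 109.1, 127.0 and 176.2 CPM in MnCl2 and at 235.7, 134.9 and 167.2 CPM in control. Control library 1, lowest for pir-84278, pir-71091, pir-77583 and pir-84907, was the highest here. Its reverse complement lies whole in the promoter windows of Rn45sl1 and Rn45sl2, starting 6 bases before the annotated gene start, and it had a run of 20 bases in no other promoter window.

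pir-63606, which begins with C, stood between the profiles. It was at 26.4, 41.4 and 12.8 CPM in MMT, at 35.9, 30.3 and 31.5 CPM in MnCl2 and at 16.7, 35.2 and 39.5 CPM in control. Its range over libraries was 3.24-fold.

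In the sums the size of the contrast depended on pir-65377. The other 21 single T-first entries, with pir-65377 left out after its values were seen, had 269, 632 and 148 counts in MMT, 367, 719 and 293 in MnCl2 and 57, 312 and 454 in control. Their summed level ran from 31.7 CPM in control library 1 to 792.9 CPM in MMT library 2, a 25.0-fold range. With pir-65377 kept, the 22 single T-first entries ran from 267.4 to 945.9 CPM in the same libraries, a 3.54-fold range. The 451 entries under 30 counts, which are not members, had 134, 235 and 105 counts in MMT, 180, 300 and 151 in MnCl2 and 59, 203 and 196 in control. Control library 1 was again the lowest and MMT library 3 the next lowest.

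**Figure D3:**
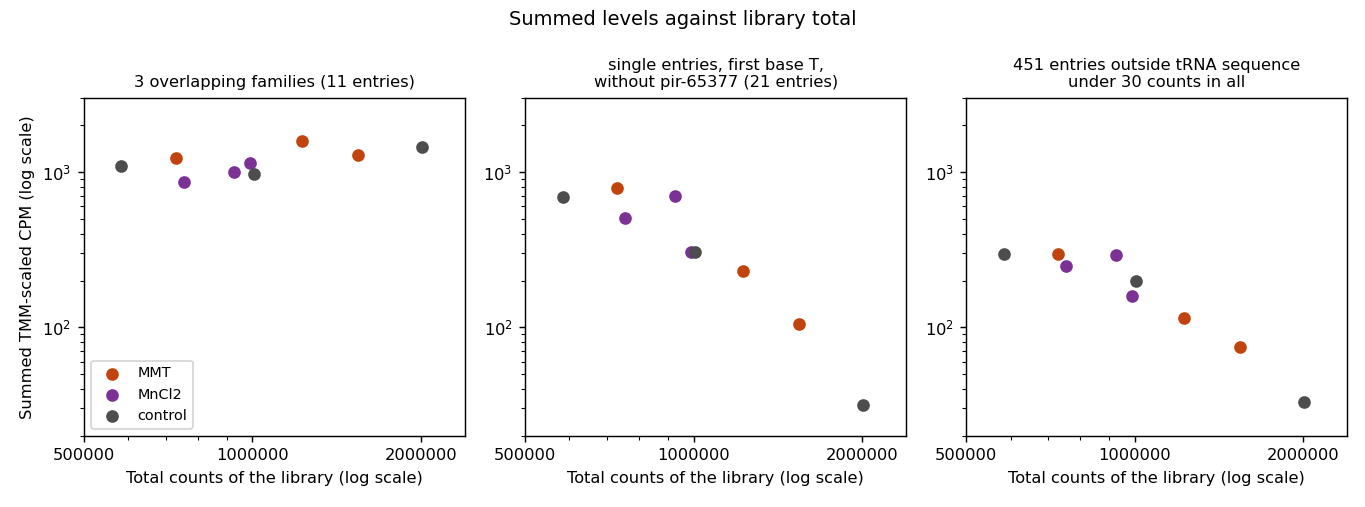
Summed TMM-scaled CPM of 3 sets of entries (log axis) against the total count of each library (log axis), with 1 point per library coloured by group. The families stay between 857.6 and 1577 CPM. The 21 single T-first entries, drawn without pir-65377, fall from 792.9 to 31.7 CPM toward the larger libraries. The 451 entries under 30 counts fall alongside them.

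The relation to library total was fitted across all 1113 entries that passed the count filter, with the groups as terms, in edgeR. This fit was chosen after the data were seen, and 30 of the 44 members entered it. The level fell with the total in 16 of the 30 members at an adjusted p under 0.05, against 23.7% of all entries tested, and rose in 1, pir-63454, against 8.45%. Among single T-first entries 14 of 16 tested fell with the total, with a median slope of -2.43 log2 units for each doubling. Of the 4 single entries tested with another first base, 2 fell, pir-62444 with a slope of -2.18 and pir-63606 with -0.89. The median slope of these 4 was -0.57. Of the 10 family entries tested, none fell with the total and 1 rose, and their median slope was 0.19. Of the 58 piRNA entries within tRNA sequence, 1 fell with the total and 11 rose.

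For pir-84278 the slope was -2.63 (SE 0.43, adjusted p = 0.00398 in edgeR) and for pir-71091 it was -2.87 (SE 0.38, adjusted p = 0.000454 in edgeR). Without control library 1 they were -2.41 (SE 0.65, adjusted p = 0.110) and -2.51 (SE 0.46, adjusted p = 0.0211) in the same edgeR fit. pir-77583 had a slope of -2.42 (SE 0.59, adjusted p = 0.0196 in edgeR), and of -1.58 (SE 0.43, adjusted p = 0.0525 in edgeR) without that library. Leaving control library 1 out brought the members that fell with the total to 8 of 33 tested, beside 4.20% of all 1144 entries then tested, and those that rose to 0. Those that rose numbered 5 without control library 2 and 4 without MMT library 3.

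Members of low level resembled miRNAs of low level in this. At a mean under 20 CPM, 66.7% of 15 members and 60% of 215 miRNAs had a slope under -1. Slopes under -2 occurred among miRNAs only below 50 CPM. Of the 33 entries with a slope under -2, 11 were members and 22 were miRNAs. At a mean of 50 CPM or more, 3 of 11 members had a slope under -2, against 0 of 264 miRNAs, 0 of 361 tRNA genes and 0 of 40 piRNA entries within tRNA sequence. The 3 were pir-84278, pir-71091 and pir-77583. Of these, pir-71091 and pir-77583 stood near the limit of 50 CPM. Their group means were 49.6 and 37.0 CPM in MMT, 59.4 and 67.4 CPM in MnCl2 and 50.4 and 48.5 CPM in control. A level that declines with the total count cannot be told apart from a difference between libraries that happen to differ in total.

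Marker miRNAs moved with this split in both directions. The 14 listed miRNAs known from the male germ line, 13 of them in the table, summed to 227, 304 and 482 CPM in MMT, 563, 268 and 277 CPM in MnCl2 and 125, 436 and 430 CPM in control. Control library 1 was the lowest, but MMT library 3, low for the T-first single entries, was the second highest. Of that sum, 402 CPM in MMT library 3 were rno-miR-34c-5p, which ciliated choroid cells also make. Of the 11 in an X-linked cluster, 10 were in the table, and their summed level was 55.4, 81.5 and 30.5 CPM in MMT, 78.7, 109.4 and 67.1 CPM in MnCl2 and 10.0, 81.1 and 130.7 CPM in control. Here control library 1 was the lowest, with 3 of the 10 at 0, and MMT library 3 the next. This part of the 14 was not planned as a list of its own. Its 10 entries held only 23 to 83 counts each over the 9 libraries. Choroid plexus miRNAs were highest in MMT library 3, with a range of 220 to 1934 CPM in MMT, 243 to 1171 CPM in MnCl2 and 356 to 1049 CPM in control. Blood miRNAs ranged from 46.8 to 66.0 CPM in MMT, 54.7 to 127 CPM in MnCl2 and 46.1 to 82.1 CPM in control. Neuronal miRNAs summed to 61653, 46701 and 62293 CPM in MMT, 53778, 48473 and 61883 CPM in MnCl2 and 63496, 54323 and 46409 CPM in control. They were lowest in MMT library 2, MnCl2 library 2 and control library 3, which were the highest of their groups for the 21 T-first entries. Oligodendrocyte miRNAs were at 4834, 4104 and 4227 CPM in MMT, 5226, 3534 and 5041 CPM in MnCl2 and 4661, 3654 and 2991 CPM in control, lowest in the same 3 libraries. The part of these markers in the result was not tested.

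With this split, the share of T-first entries in the members' counts ranged more widely within each group than the group means lay apart. T-first entries made up 24.2%, 43.4% and 23.0% of the members' counts in MMT, 42.4%, 45.6% and 32.7% in MnCl2 and 19.4%, 33.8% and 45.8% in control. The 95% Wilson interval was 18.1% to 20.8% in control library 1 and 43.1% to 48.4% in control library 3, so libraries of 1 group lay outside each other's counting error. The mean was 30.2% ± 11.5 in MMT, 40.2% ± 6.73 in MnCl2 and 33.0% ± 13.2 in control (SD, n = 3 each). Entries of 29 bases or longer made up 88.4% ± 0.759 in MMT, 88.5% ± 1.34 in MnCl2 and 87.2% ± 1.44 in control. The groups overlapped in both shares.

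**Figure D4:**
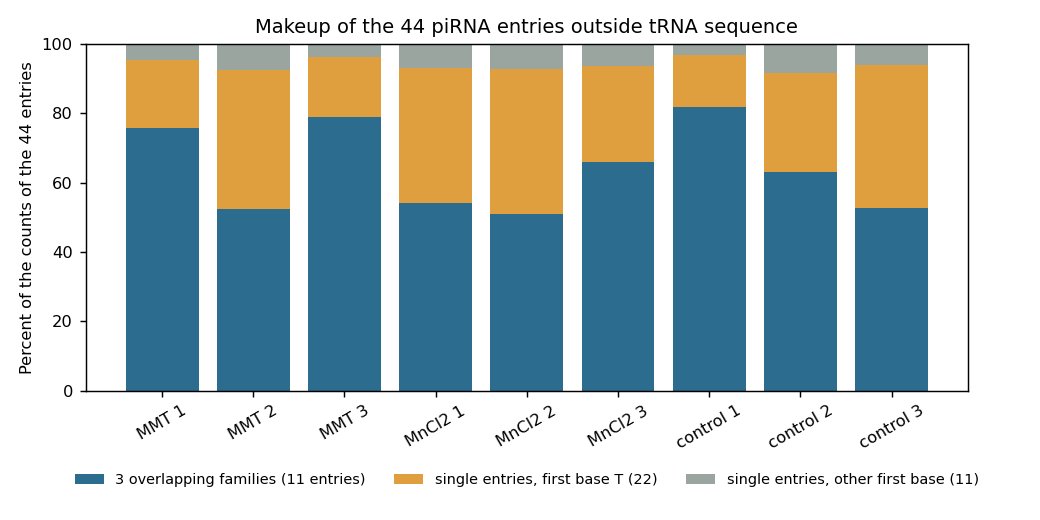
Percent of the counts of the 44 entries in each library that fell in the 3 overlapping families, in single entries with first base T and in single entries with another first base. The families held 81.7% in control library 1 and 52.7% in control library 3, a wider gap than between the group means of 69.0% (MMT), 56.9% (MnCl2) and 65.8% (control).

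The summed level of the 44 entries hid the split. It was 2084, 2346 and 1630 CPM in MMT, 1585, 1976 and 1731 CPM in MnCl2 and 1780, 1533 and 2079 CPM in control. Group means were 2020 ± 362 CPM in MMT, 1764 ± 198 CPM in MnCl2 and 1798 ± 273 CPM in control (SD, n = 3 each), and the groups overlapped.

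Whether MMT changed any of these entries was tested with edgeR's quasi-likelihood test on all 1113 entries, of which 30 were members. Against control, 0 of the 30 passed an adjusted p of 0.05, as did 0% of all entries tested. At an unadjusted p under 0.05 there were 0 higher (0.18% of all entries) and 0 lower (1.98%), and DESeq2 gave 0 of each. Leaving out control library 1 brought the higher ones to 3, and leaving out MMT library 3 brought them to 2. Here and below, shares of all entries at that level come from the main edgeR fit only. Counts from DESeq2 or with a library left out thus have no such share beside them. The lowest p in the upward direction belonged to pir-178901 with a log2 fold change of 1.32 (SE 0.87; 0.55 without MMT library 2 and 2.18 without control library 2), pir-63875 with 0.29 (SE 0.19) and pir-63429 with 0.30 (SE 0.21). In the downward direction they were pir-62328 with -0.38 (SE 0.54), pir-83725 with -0.48 (SE 0.90) and pir-63462 with -0.21 (SE 0.56), each of which changed sign when 1 library was left out. The adjusted p was 1.00 for every one of the 30 in edgeR. Of the 30, 20 had a log2 fold change above 0 (53.1% of all entries tested), and their median was 0.11, beside 0.01 over all entries tested.

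MnCl2 against control also gave 0 of 30 members past an adjusted p of 0.05 in edgeR, beside 0% of all entries, and DESeq2 gave 0. At an unadjusted p under 0.05, 1 member was higher (1.44% of all entries) and 1 lower (3.14%). DESeq2 gave 2 higher and 1 lower at that level. The higher one was pir-178901, with 10, 12 and 12 counts in MnCl2 and 2, 5 and 1 in control, which did not overlap as levels. Its log2 fold change was 2.33 (SE 0.85, unadjusted p = 0.0189, adjusted p = 0.843 in edgeR), and 1.84 to 3.15 when 1 library was left out. The lower one was pir-63455, at 85.1 ± 8.26 CPM in MnCl2 and 127.6 ± 34.9 CPM in control (SD, n = 3 each), with a log2 fold change of -0.60 (SE 0.23, unadjusted p = 0.0274, adjusted p = 0.843 in edgeR).

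The members next in line did not reach the unadjusted threshold in edgeR. The look-alike pair pir-84491 and pir-84490 had log2 fold changes of 2.0 (SE 1.02) and 1.66 (SE 1.07) in MnCl2, with control library 1 at 1 and 0 counts. For pir-84491 the value was 1.34 without control library 1 and 2.91 without control library 3, and for pir-84490 it was 0.98 and 2.76. Unadjusted p for pir-84491 was 0.0386 in DESeq2, and with no filter in edgeR it was 0.000375 (adjusted p = 0.165). With no filter pir-84490 had an unadjusted p of 0.00256 and pir-65377 one of 0.0471 in edgeR. pir-65377 and pir-63454 had log2 fold changes of -0.39 (SE 0.23) and -0.41 (SE 0.25). The number of members at an unadjusted p under 0.05 was 0 higher and 0 lower without control library 1, and 4 higher and 2 lower without control library 3. Without MMT library 2, 2 were higher. The lower ones numbered 2 without control library 2 or MnCl2 library 3, and 0 without MnCl2 library 1 or 2. Of the 30, 16 had a log2 fold change above 0 (57.3% of all entries), and their median was 0.11, beside 0.06 over all entries. This comparison shares its controls with that of MMT, and the vehicles differed.

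MMT against MnCl2, the organic against the inorganic form at unlike doses, gave 0 of 30 members past an adjusted p of 0.05 in edgeR, beside 0% of all entries, and 0 in DESeq2. At an unadjusted p under 0.05, 3 members were higher (1.35% of all entries) and 0 lower (0.629%), the same numbers as in DESeq2. All 3 belong to families: pir-63455 with a log2 fold change of 0.71 (SE 0.23), pir-63429 with 0.52 (SE 0.21) and pir-63876 with 0.52 (SE 0.22), each with an adjusted p of 0.981 in edgeR. Because pir-63429 and pir-63876 share nearly all their bases, they are not separate observations. Without MMT library 1 the 3 became 0, and without MnCl2 library 1 they became 1. Without MMT library 2, 1 member was lower.

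In the downward direction the lowest p belonged to single entries with wide errors. pir-178901 had a log2 fold change of -1.01 (SE 0.77; -1.73 without MMT library 2 and -0.55 without MMT library 3), pir-83725 of -1.04 (SE 0.87) and pir-83598 of -0.85 (SE 0.93). Of the 30 members, 15 had a log2 fold change above 0 (41.9% of all entries), and their median was -0.01, beside -0.06 over all entries.

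**Figure D5:**
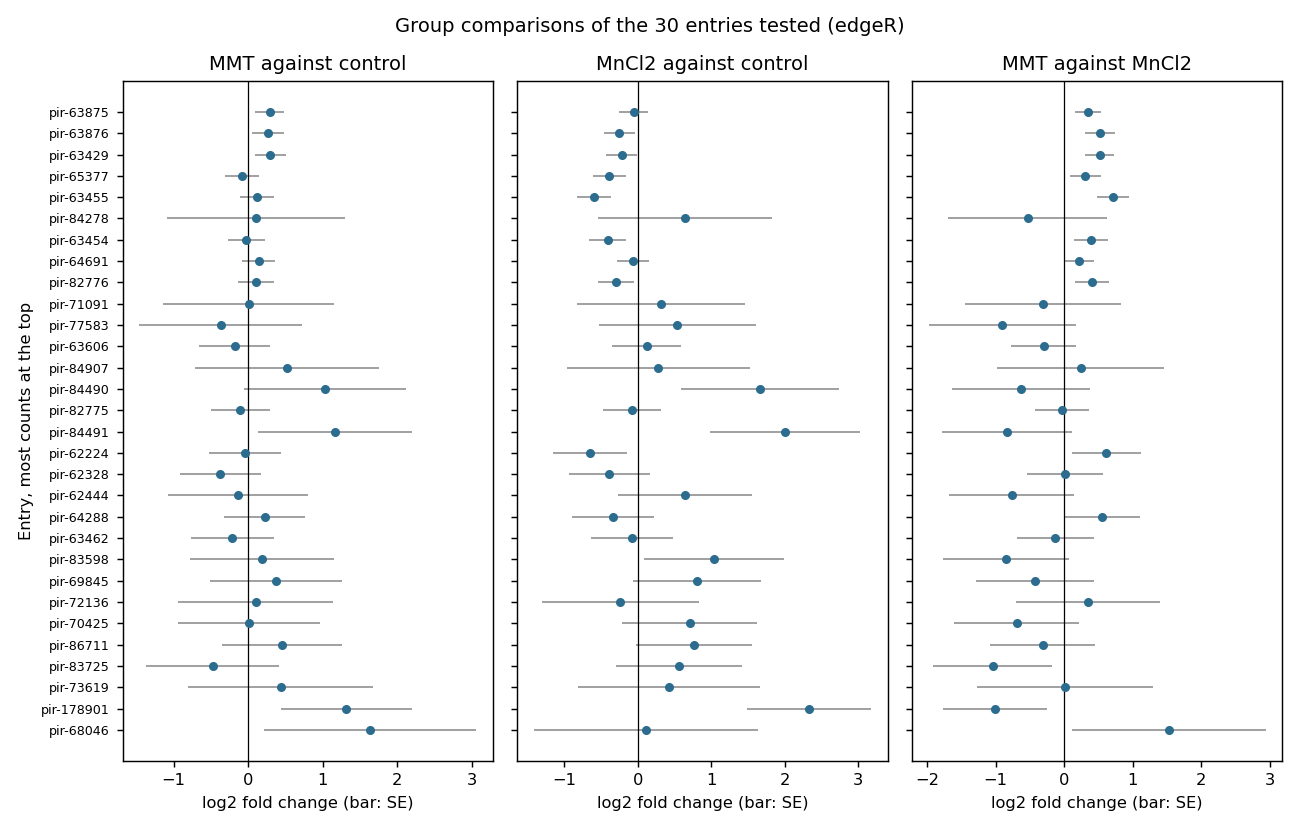
Log2 fold change and standard error of the 30 tested members in the 3 comparisons, ordered by total counts from the top. The most abundant family entries have the shortest error bars, and standard errors of single T-first entries reach 1.52 log2 units.

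Across all 44 members, the untested ones included, few separated the groups completely. MMT was above control with no overlap in 1, pir-64287 (1.8% of all entries tested), and below in 0 (2.79%). MnCl2 was above control in 4 (4.76%), which were pir-178901, pir-86711, pir-63777 and pir-153835, and below in 2 (4.94%), pir-63455 and pir-62224. MMT was above MnCl2 in 3 (4.31%), pir-63455, pir-63429 and pir-63876, and below in 3 (4.76%), pir-83725, pir-173168 and pir-153835. Each count is of 44 entries, so a single entry is 2.27% of them. The shares cover only entries that passed the count filter, which pir-64287, pir-63777, pir-153835 and pir-173168 did not. Among the 30 members tested, MMT was above control in 0 and below in 0. MnCl2 was above control in 2 and below in 2, and MMT was above MnCl2 in 3 and below in 1.

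Several of the sequences occur in annotated promoter windows, here the 250 bases before and 50 after each RefSeq gene start in the GRCr8 assembly. A run of 20 bases or more, on either strand, was found for 21 of the 44 members, in 122 of 33462 distinct windows (0.365%). Most of these belong to pir-65300, which had a run in 56 windows on the gene's strand and 36 on the other. Its whole sequence lay in 0 windows on either strand. The members were not compared with repeat sequence. pir-84278 had a run in 8 windows, whole in 3, among them those of Tlr6, a receptor of innate immunity, and of LOC134482364. The last also held runs of pir-153835 and pir-83725.

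One window is shown because it held runs of 5 members, the most of any window, all on the strand opposite to the gene. It is that of Rps19l3, chr1:85737882-85738181 on the plus strand in GRCr8, and the runs of pir-69718, pir-70425, pir-73619, pir-77583 and pir-84907, in capitals, cover 122 of its 300 bases.
Rps19l3: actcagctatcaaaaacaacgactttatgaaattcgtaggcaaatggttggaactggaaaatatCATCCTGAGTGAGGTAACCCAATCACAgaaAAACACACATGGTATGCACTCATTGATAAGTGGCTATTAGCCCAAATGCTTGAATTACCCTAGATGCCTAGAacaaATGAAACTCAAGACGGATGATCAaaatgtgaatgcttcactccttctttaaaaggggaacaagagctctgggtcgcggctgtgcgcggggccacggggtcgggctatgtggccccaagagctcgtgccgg
Together the 5 entries were at 42.6, 211 and 22.0 CPM in MMT, at 115, 170 and 73.4 CPM in MnCl2 and at 3.89, 105 and 176 CPM in control. The lowest sums were again those of control library 1 and MMT library 3, and pir-77583 and pir-84907 held 408 and 222 of the counts. These entries and pir-69718 match the window only in part, while pir-70425 and pir-73619 lie in it whole. pir-69718, with 36 counts, went another way, at 0 in MMT library 1. A match in this window does not place the origin of the reads there, since the rest of the genome was not searched.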

How the data were processed

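Small RNAs of rat striatum were measured in 9 libraries, 3 per group. Per the labels' protocols, RNA of 15 to 45 nucleotides was cut from a gel, and the QIAseq miRNA kit supplied the adapters. The submitters' processing notes name Trimmomatic and rn6. Not given in the sources used here are the aligner, how mismatches and multiply matching reads were handled, and whether unique molecular identifiers were collapsed. The authors deposited raw counts per entry, 1 file per library, with totals of 583045 to 2012769. An entry with few counts has a correspondingly wide error.

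Groups and replicate numbers came from the sample titles. The members and lists were chosen with earlier results of these data known. A single fit of all 9 libraries was made in edgeR 4.0.16 (R 4.3.3), with TMM scaling, entries filtered by filterByExpr and robust quasi-likelihood tests. Two-sided p-values were adjusted by Benjamini-Hochberg over the 1113 entries tested. The filter left 30 of the 44 members, and the biological coefficient of variation was 0.279. The test was tried on simulated counts. Levels are TMM-scaled CPM, as mean ± SD. Planned permutation tests of sums and shares over the members are not printed, because the members were chosen with the results known. The slope on log2 total count comes from the same fit with that term added.

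Named entries are the 15 with the most counts, the 3 lowest p in each direction of each comparison, the 3 on each side of the count threshold, and members of the most abundant family. Others were chosen after their values were seen. Promoter sequences are from RefSeq (GRCr8). The alternatives tried were scaling by RLE or by total counts, DESeq2 1.42.0, leaving out the filter or asking for 10 CPM in 3 libraries, the total count as covariate, the replicate block, each library left out, a threshold of 100 counts, a run of 14 bases, and the most abundant member left out. Sums with 1 entry per family, sums over all 495 entries and the slope were added after the data were seen. Tables and figures were made in Python 3.11.15 (pandas 2.3.3, numpy 2.4.6, scipy 1.17.1, matplotlib 3.10.9).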

Additional observations from a re-analysis of the deposited data

How the results depend on the processing

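No member was called in any comparison (0 in each) with RLE scaling, DESeq2, no filter, the total count as covariate, the replicate block, any library left out, 100 counts as threshold or a run of 14 bases. Total-count scaling was applied to the summed level only, and leaving out the most abundant member to sums and shares only. Same-numbered libraries correlated at -0.67 to 0.49 and 3 of 9 correlated best with their own number. Pairing by number was thus not seen, though so few libraries cannot exclude it. The limit of 10 CPM in 3 libraries left the same entries as the main filter. At an unadjusted p under 0.05, MMT against control had 2 members higher with no filter and 3 with the total count as covariate, against 0. MnCl2 against control had 5 higher and 2 lower with no filter and 4 higher with the covariate, against 1 each way, and 0 higher among members with 100 counts or more. MMT against MnCl2 had 1 lower with no filter, against 0. The share of all entries at that level was not computed under these settings, so these counts cannot be set against it. With 1 entry per family, the share of counts in entries of 29 bases or longer moved. It differed by 4.37 percentage points for MnCl2 against control (1.36 with all entries). For MMT against MnCl2 it differed by -2.65 percentage points (-0.18 with all entries). The members that fell with the total count numbered 8 to 19 when 1 library was left out (8 without control library 1). Those that rose numbered 0 to 5 when 1 library was left out and 6 with no filter. The 3 downward values named of MMT against control changed sign with a library left out: pir-62328 at -0.70 to 0.068, pir-63462 at -0.53 to 0.12 and pir-83725 at -1.13 to 0.12 on the log2 scale. The cause was not tested. Low counts limit most single entries: 14 of the 44 members were not tested, and in control library 1, the deepest, several T-first entries had 0 or 1 counts.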
